A study of Mus musculus with 2 samples.

Results

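Autophagy is the route by which a cell wraps its own proteins and organelles in a membrane, the autophagosome, and delivers them to lysosomes for digestion. A kinase complex around ULK1 starts the process, a lipid kinase complex that contains Beclin 1 marks the membrane, and a chain of ATG enzymes attaches small ubiquitin-like proteins of the LC3 and GABARAP families to it. Receptors such as p62 and optineurin hold ubiquitin-tagged cargo at one end and LC3 or GABARAP at the other. In white blood cells the pathway also removes bacteria and damaged mitochondria, and its machinery is controlled to a large part after transcription, by phosphorylation and lipid attachment. The genes described here are 10 of its core and receptor genes, namely Sqstm1, Optn, Map1lc3b, Gabarapl1, Gabarapl2, Ulk1, Becn1, Atg5, Atg7 and Atg16l1. They were found by their symbols in the name column of the array files, outside the control spots, and this gave 24 probes of 56605 and 10 genes of 37074 gene names.

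RNA labelled as mouse blood was hybridised to 2 one-colour Agilent arrays, 1 for each group. Of the markers of blood cells, all 8 of monocytes and macrophages were detected on both arrays, but only 1 of 7 erythroid and 1 of 6 platelet markers. The cells behind the RNA may therefore differ from whole blood, and every value below describes the samples under that label. Per the protocols, cells were lysed and globin RNA was removed, and the part of these steps in the marker pattern was not tested. The heat sample was kept for 1 h at 37 °C in a water bath as a pretreatment and for 1 h at 38.5 °C afterwards. For the control sample the labels stated blood alone, with no temperature or time, and for neither sample a strain, sex or age. The labels speak of 3 replicates per line, but 1 array per group was analysed here, so no difference has a replicate check or a p-value, and the number of arrays limits the precision.

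All 10 genes were detected in both samples, and none differed by more than 0.24 between them (heat minus control, log2 scale). Sqstm1, the gene of p62, differed by 0.0041 and Map1lc3b, the gene of LC3B, by 0.023. The largest differences in each direction were 0.24 for Optn, the gene of optineurin, and -0.14 for Becn1, the gene of Beclin 1. None of the 10 was 2-fold apart (a log2 difference of 1), against 0.663% of 18562 genes measured on both arrays, where 0.21% were 2-fold higher in heat and 0.453% lower. Of the 10, 8 lay within 0.1 of 0, against 48.5% of all genes, and Optn was the only one at least 0.2 from 0, against 25.2%. These shares are not matched for brightness, and dim probes scatter more widely than bright ones. The middle 90% of probes of like signal ran from -0.53 to 0.51 at Map1lc3b probe 3, which is dim. At Ulk1 probe 2, which is brighter, it ran from -0.22 to 0.21. Among the brighter 50% of detected probes, 17 of 10837 genes were 2-fold apart. The median over the 10 was 0.021, and that over all genes 0.0076.

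**Figure D1:**
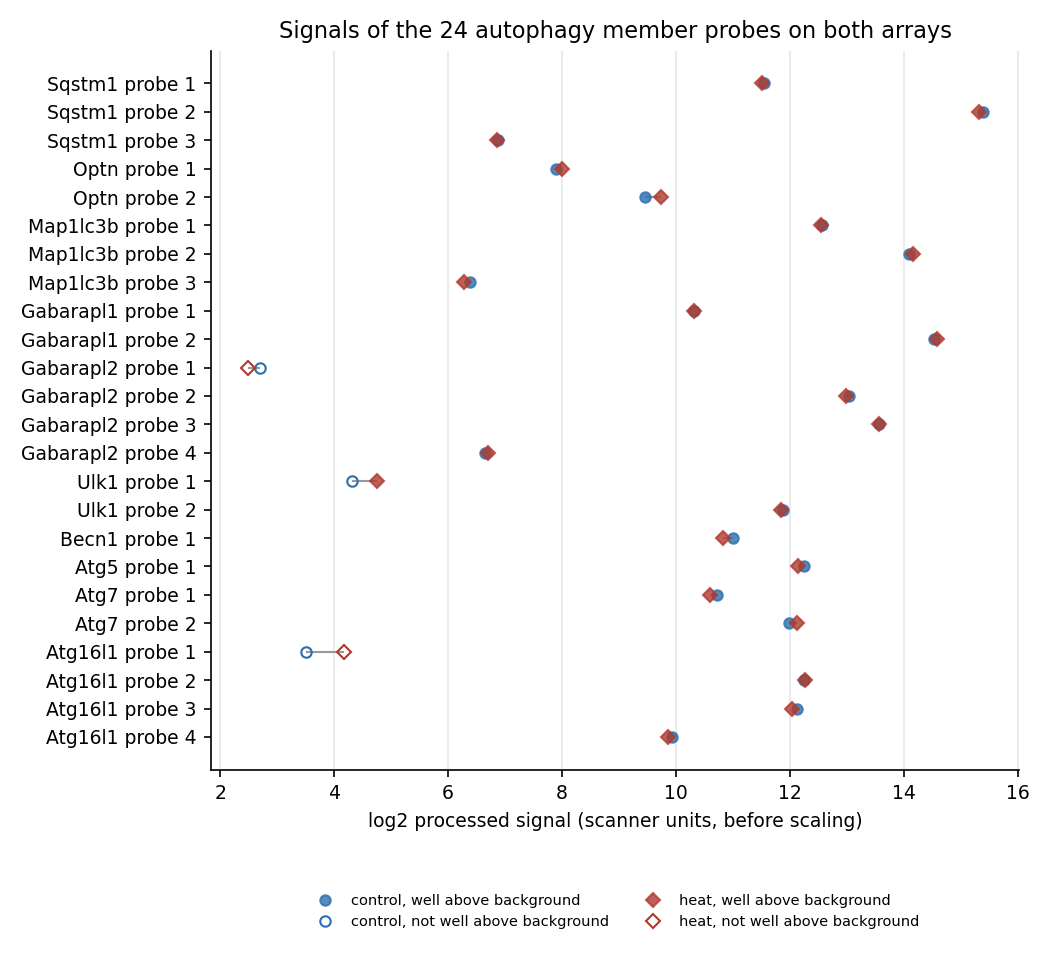
Log2 processed signal (x axis, scanner units before scaling) of each of the 24 member probes (rows), with circles for the control array and diamonds for the heat array. Filled symbols were well above background and open ones were not. The symbols of a probe lie close together at all 21 probes detected on both arrays.

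Each probe is a strand of 60 bases, and where it sits decides which transcripts it reads. Coordinates are mm9, the build in the array files. No mm9 gene annotation was used, so exons and untranslated regions were not assigned. Stretches of 30 bases are shown for the probes on which the differences below turn. In the first 2, AATAAA is in capitals, the letters of the common signal for cutting and polyadenylating an mRNA, which places such a probe near a possible transcript end. AATAAA was found in 3 of the 24 probes.
Sqstm1 probe 2, bases 31 to 60, chr11:50013670-50013729, minus strand: tggtttgtaagtaacctgtAATAAAatgcc
Ulk1 probe 2, bases 31 to 60, chr5:111213514-111213573, minus strand: tcatatcagtttaagaaAATAAAaattgga

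The next 4 belong to Optn, which had the largest difference, and to Atg7, whose probes went in opposite directions, and show the first 30 bases of each probe.
Optn probe 1, chr2:4945178-4948201, minus strand: gattttgctgaaagagaacaatgacattga
Optn probe 2, chr2:4941834-4941893, minus strand: tttgcagatgaagtagcagcttacagattt
Atg7 probe 1, chr6:114727096-114809066, plus strand: agatctgggacatgagtgacgaggagactg
Atg7 probe 2, chr6:114809893-114809952, plus strand: agagccacacagcctcggtttaagagcact

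Optn probe 1 and Atg7 probe 1 cover 3024 and 81971 bases of the genome with 60 bases of sequence, so each joins separate stretches, as a probe across a splice junction does. Ulk1 probe 1 and the Becn1 probe did the same, over 392 and 943 bases. Of the 24 probes, 17 were designed on RefSeq transcripts and 7 on Ensembl or cDNA records. No member probe shared a run of 20 bases with a probe of another gene. Atg16l1 probes 3 and 4 shared 43 bases, so their readings are not independent of each other. GC content ran from 35% to 55%.

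Of the 24 probes, 22 were well above background in the heat sample and 21 in the control sample, and 21 in both, against 50.8% of all probes. All 10 genes had such a probe on both arrays, against 50.1% of gene names. Signals of the 21 ran from 77.8 to 40963 for heat and from 83.9 to 42794 for control. Probes bind with different strength, so these signals do not rank the genes or the transcripts of a gene.

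Both cargo receptors were detected at every probe. For p62, the receptor that gathers ubiquitin-tagged proteins and is itself degraded by autophagy, Sqstm1 probe 1 had signals of 2917 in the heat sample and 2977 in the control sample. Sqstm1 probe 2, which holds AATAAA, had 40963 and 42794 (heat, then control, here and below). Probe 3, designed on an Ensembl transcript and further downstream on the genome, had 116 and 117. The 3 probes gave scaled differences of 0.0090, -0.025 and 0.028, so they differed from 0 in either direction by a few hundredths. The gene's difference was 0.0041 ± 0.026 (SD over 3 probes, which share the 2 RNA samples and are not replicates), and 97.7% of all genes lay at least as far from 0.

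Optineurin is a receptor for ubiquitin-coated bacteria and damaged mitochondria. Optn probe 1, across the junction, had 256 and 237. Optn probe 2 had 858 and 701. Both were higher in the heat sample, by 0.15 and 0.33, and the gene by 0.24 ± 0.13 (SD over 2 probes). Among all genes, 19.2% lay at least as far from 0 as Optn. Probe 2 was the only one of the 21 outside the middle 90% of probes of like signal (within 0.5 log2 of its own), which ran from -0.27 to 0.28 there. Of all probes judged in the same way, 9.94% lay outside. It was also the only one whose difference passed the error that the scanner software gives to its 2 signals (0.20), while probe 1 stayed within its error of 0.21. The share of all probes past their own error was not counted. Over the 21 probes this error had a lowest value of 0.204 and a median of 0.204, so it works much like a fixed cut.

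**Figure D2:**
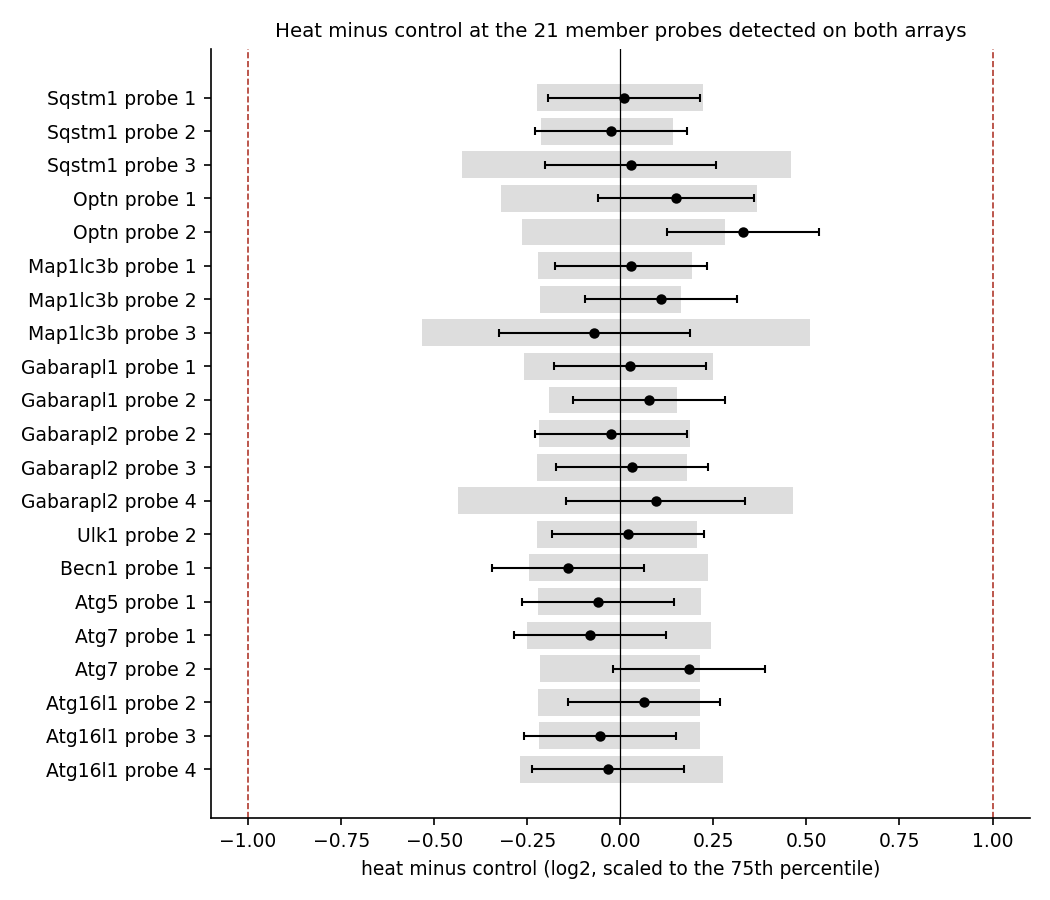
Heat minus control (x axis, log2 after scaling) at the 21 member probes detected on both arrays, with bars for the error that the scanner software estimates for the 2 signals. Grey boxes span the 5th to the 95th percentile of all probes of like signal, and dashed lines mark 2-fold. Only probe 2 of Optn, at 0.33, lies outside its box.

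The ubiquitin-like proteins that coat the growing membrane, LC3B, GABARAPL1 and GABARAPL2, had genes with differences between 0.023 and 0.051. Map1lc3b probe 1 had 5987 and 6026, and probe 2, further along the same transcript, 18360 and 17489. Probe 3, on an Ensembl transcript, lies upstream of both on the genome and had 77.8 and 83.9. Their differences of 0.029, 0.11 and -0.070 gave 0.023 ± 0.090 (SD over 3 probes), so the spread between probes was larger than the mean.

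GABARAPL1 is a member of the GABARAP branch, which acts late in autophagosome formation. Gabarapl1 probe 1 had 1271 and 1282, and probe 2 had 24389 and 23755. Both gave differences above 0, of 0.026 and 0.077, and the gene's mean was 0.051 ± 0.036 (SD over 2 probes). Optn and Gabarapl1 were the 2 genes, of 7 with several usable probes, at which all probes had the same sign. The share of all genes with such agreement was not counted, so it is not read as a trait of these 2.

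For Gabarapl2, whose protein is also known as GATE-16, probe 2 had 8071 and 8438, probe 3 had 12088 and 12152, and probe 4, on a cDNA record, had 104 and 100.3. Probe 1, on an Ensembl transcript, was not well above background in either sample and was left out. The other 3 differed by -0.026, 0.031 and 0.095, with a mean of 0.034 ± 0.061 (SD over 3 probes).

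Ulk1 encodes the kinase that starts autophagy when nutrients or energy run low. Ulk1 probe 2, at the AATAAA-bearing end, had 3698 and 3746 and a difference of 0.020. Probe 1, across a junction, had 26.9 and 19.9, and passed the background flag in the heat sample alone. The lowest signal of any probe called well above background was 24.9 for heat and 31.0 for control, so this probe has no usable fold.

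Becn1 encodes the scaffold of the lipid kinase complex that marks the site of the new membrane. Its 1 probe, across a junction at chr11:101151771-101152713, had 1814 and 2053. The difference of -0.14 was the lowest of the 21 member probes, and it stayed within the scanner error of 0.20. Among all genes, 38.2% lay at least as far from 0.

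The conjugation enzymes attach LC3 and GABARAP to lipid, with ATG7 as the activating enzyme and ATG5 and ATG16L1 as parts of the complex that finishes the reaction. Atg5 had 1 probe, at chr10:44083997-44084056, with signals of 4543 and 4863 and a difference of -0.059. Atg7 probe 1, across the junction, had 1545 and 1680. Atg7 probe 2 had 4485 and 4051.

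The Atg7 probes disagreed, at -0.082 and 0.19, and both are listed for the same RefSeq transcripts. Their mean was 0.052 ± 0.19 (SD over 2 probes), the widest spread between probes among the members. Probe 2 was the only one of the 21 past 2 SDs of the spread between spots of one probe at like brightness, against 16.2% of all probes. It lay inside the range of probes of like signal, which was -0.22 to 0.21.

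Atg16l1 probe 2 had 4936 and 4852 and a difference of 0.063. The overlapping probes 3 and 4 had 4179 and 4456, and 927 and 974. Their differences were -0.054 and -0.033. Probe 1 was not well above background in either sample. The gene's mean was -0.0079 ± 0.062 (SD over 3 probes).

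Across the 21 probes, 13 differences were above 0 and 8 below, and the median was 0.026. Of all probes, 51.8% were above 0. The error that the scanner software gives ran from 0.20 to 0.26, and 20 of the 21 differences were smaller than their own. The share of all probes within their own error was not counted, so this count does not set the members apart. A further measure came from probes printed at 10 spots, whose spot differences scattered around their probe's mean with an SD of 0.084. That SD was 0.20 over the 14 such probes with a log2 signal under 10 and 0.074 over the 269 brighter ones. Of the 21, 15 lay within 1 such SD of their brightness group, a share that was not counted for all probes. Past 2 such SDs lay 1 of the 21, against 16.2% of all probes. Probes of different design for 1 gene scattered with a pooled SD of 0.088. The median over the 16 usable probes on RefSeq transcripts was 0.028 and over the other 5 it was -0.033.

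**Figure D3:**
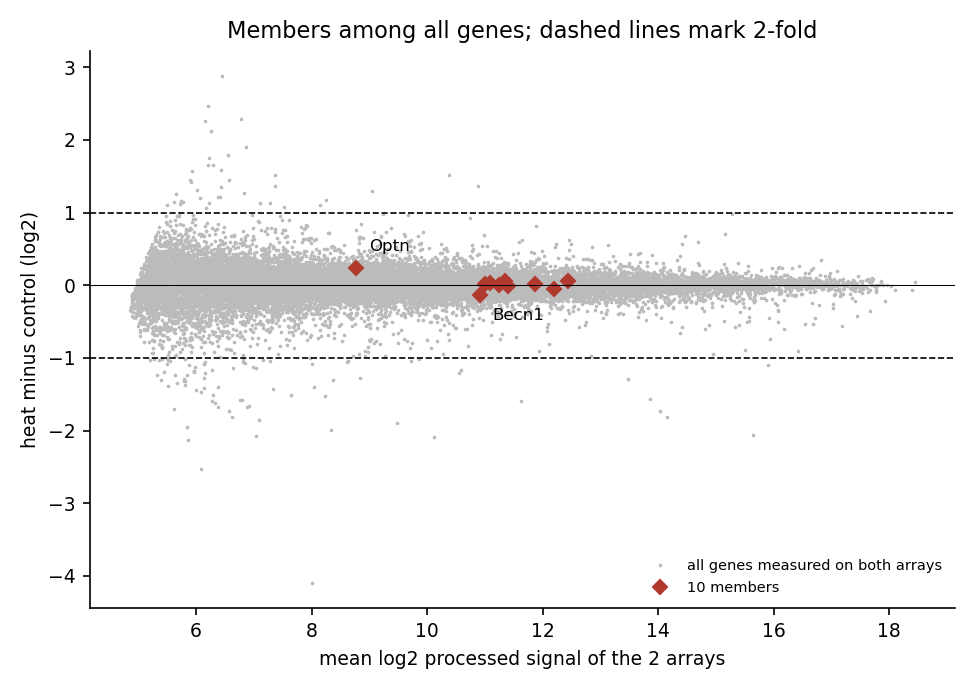
Heat minus control (y axis, log2) against the mean log2 processed signal of the 2 arrays (x axis) for 18562 genes, with the 10 members as diamonds and dashed lines at 2-fold. The members lie between -0.14 and 0.24, in the dense middle of the cloud.

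Of the 10 members, 7 were above 0 and 3 below, against 52.2% and 47.8% of all genes. This count depends on the scaling. It was 3 with no scaling, where 41.4% of all genes were above 0, and 6 to 8 with the other scalings and background corrections. Optn, Gabarapl1 and Atg7 stayed above 0 and Becn1 and Atg5 below 0 under all 11 alternative settings. All these settings re-process the same 2 arrays, and the share of all genes that keep their sign was not counted. A kept sign is therefore no replicate and settles no direction. For Atg7 the 2 probes went in opposite directions, at -0.082 and 0.19. Sqstm1 changed sign under 5 of the settings, Atg16l1 under 4 and Gabarapl2 under 3, so no direction is given for these 3 genes either. Map1lc3b and Ulk1 were below 0 only with no scaling, which moves every gene by the same amount.

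**Figure D4:**
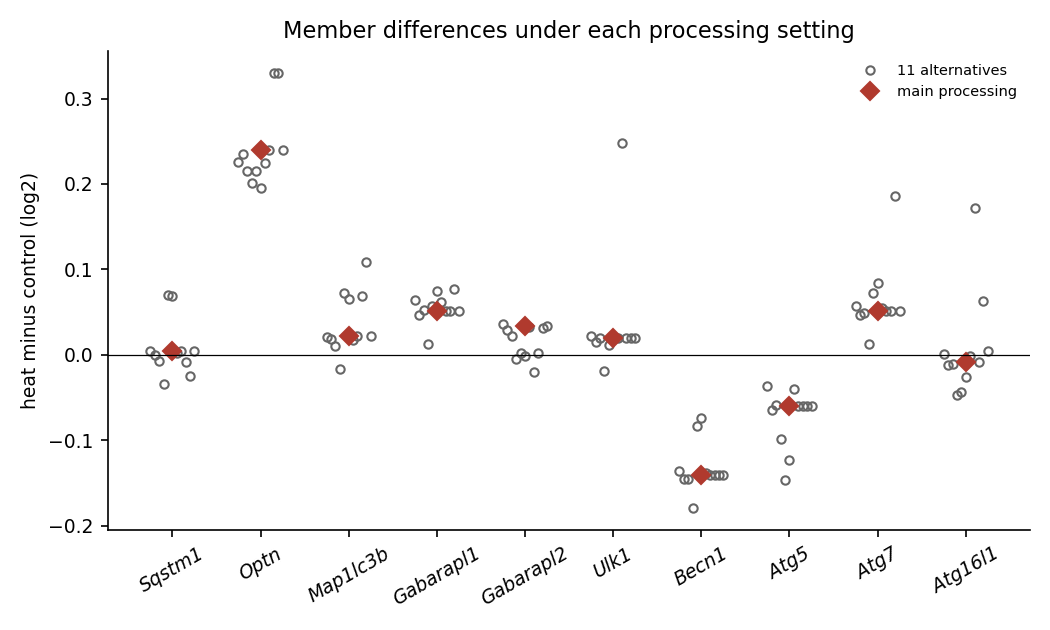
Heat minus control (y axis, log2) of each member under the main processing (diamonds) and 11 alternatives (circles). Optn stays between 0.20 and 0.33 and Becn1 between -0.18 and -0.074, while the circles of Sqstm1, Gabarapl2 and Atg16l1 fall on both sides of 0.

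A wider list of 67 other genes of the pathway was described in the same way. All but Prkaa2, a catalytic subunit of the energy sensor AMPK that was not well above background at either probe, were measured on both arrays. None of the 66 was 2-fold apart. Of them, 46 (69.7%) were above 0 and 20 below, with a median of 0.045, against 52.2% above 0 and a median of 0.0076 over all genes. With no scaling 36 of 66 (54.5%) were above 0, with a median of 0.0069, against 41.4% and a median of -0.031 over all genes. The values ran from -0.17 to 0.47. At least 0.2 from 0 were 7 of 66 (10.6%), against 25.2% of all genes in either direction. All 7 were higher, against 13% of all genes at least 0.2 higher. The lack of lower ones depends on the processing. The lowest value was -0.21 with no scaling, -0.25 with the brightest probe of each gene and -0.60 with dim probes kept.

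Among paralogues and related receptors of the members, Ulk2 differed by -0.014 and Atg16l2 by 0.0057. Map1lc3a, the gene of LC3A, had signals of 403 and 446 and a difference of -0.11. Gabarap had 50388 and 48512 at its brightest probe and 180 and 156 at another, with a mean of 0.17 ± 0.11 (SD over 2 probes). The p62 relative Nbr1 differed by -0.069 at 1 usable probe. Tax1bp1, another ubiquitin receptor, had a mean of 0.086 ± 0.27 (SD over 3 probes), with 1 probe at 0.39 and the other 2 below 0. Calcoco1 had 145 and 76.4 at one probe and 119 and 138 at another, that is 0.96 and -0.17, so its mean of 0.39 ± 0.80 has no settled direction.

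The counts by role below stand against 52.2% of all genes above 0 (41.4% with no scaling, 57.0% with normexp background correction and 75th percentile scaling, 51.1% with the brightest probe of each gene) and 48.5% within 0.1 of 0. In the ULK kinase complex (4 of the wider list), 2 genes were above 0 and 2 below. Its gene Atg13 had a mean of 0.41 ± 0.73 (SD over 2 probes). This was made of 0.92 at a dim probe (78.5 and 42.5) and -0.11 at a bright one (4488 and 4974). In the lipid kinase complex, 3 of 7 were above 0. The count was 1 with no scaling, 4 with normexp and 75th percentile scaling, and 6 with the brightest probe of each gene. The group therefore has no settled direction. Its largest difference was 0.13 ± 0.095 (SD over 3 probes) for Pik3r4, a regulatory subunit. Pik3r4 had 0.025 at its brightest probe, and -0.0054 and -0.031 with normexp background correction (75th percentile, quantile), so it has no settled direction. In the conjugation machinery, 7 of 8 were above 0, but 3 to 6 of 8 under the other scalings and background corrections, so the group has no settled direction, and 6 of the 8 lay within 0.1 of 0. Atg12, which is joined to ATG5, had 7878 and 7363 and a difference of 0.14.

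Among genes of lipid transfer and membrane supply, 8 of 11 were above 0 (6 with no scaling, 9 with normexp and 75th percentile scaling). Atg9a, a scramblase of the vesicles that seed the membrane, had the largest difference of the wider list at 0.47, from 1 probe with 613 and 456. Its relative Atg9b differed by -0.12 at 1 usable probe. With normexp background correction the Atg9b difference was 0.014 (75th percentile) and -0.011 (quantile). Among genes of fusion with lysosomes, 11 of 13 were above 0 (9 with no scaling) and 11 lay within 0.1 of 0. Tecpr1, a tether between autophagosome and lysosome, had 15772 and 12934 at 1 probe and a difference of 0.32.

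Of the upstream regulators, 5 of 9 were above 0 (7 with normexp background correction under either scaling and with the brightest probe of each gene). Tsc1, part of the brake on the growth kinase mTOR, had 0.34 ± 0.28 (SD over 2 probes), and Rptor, a subunit of the mTOR complex that restrains autophagy, -0.17 ± 0.20 (SD over 3 probes). Tsc1 was higher by 0.14 at a bright probe (2214 and 2059) and by 0.54 at a dim one (45.5 and 32.2). With normexp background correction the Tsc1 difference was 0.19 (75th percentile) and 0.16 (quantile). Rptor had 0.054 at its brightest probe. Tfeb, a transcription factor that switches on autophagy and lysosome genes, differed by 0.10 ± 0.20 (SD over 4 probes). Its probes ran from -0.079 to 0.34, so it has no settled direction. Of the cargo receptors in the wider list, 9 of 12 were above 0, but 5 of 12 with the brightest probe of each gene (median -0.0080), so the group has no settled direction. Bnip3, a receptor for mitochondria, was at -0.11. Further genes at least 0.2 higher were Rb1cc1 of the ULK complex and the TFEB relative Tfe3. Rb1cc1 had 0.23 ± 0.19 (SD over 7 probes, from -0.014 to 0.57) and Tfe3 0.29 ± 0.13 (SD over 2 probes). Both were singled out after their values were seen, as was Tfeb.

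**Figure D5:**
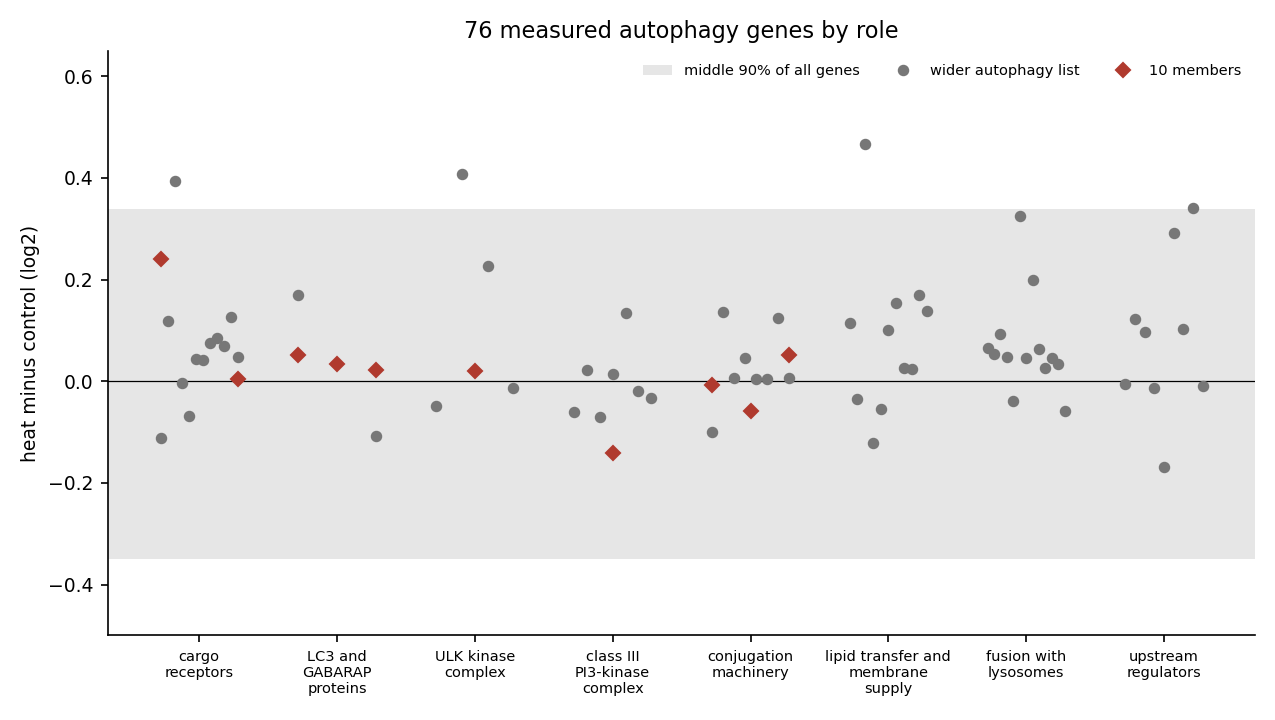
Heat minus control (y axis, log2) of 76 measured autophagy genes grouped by role (x axis), with the 10 members as diamonds, the wider list as circles and the middle 90% of all genes, -0.35 to 0.34, as a grey band. Most points lie within the band, and Atg9a, Atg13 and Calcoco1 stand highest.

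Start-site windows of 300 bases (250 before and 50 after) were at hand for 8 of the 10 members, from RefSeq on GRCm38.p6. Becn1 and Atg16l1 had none. The letters CACGTG, the E-box core read by TFEB and other factors, were in the windows of Atg5 and Atg7, 2 of 8, against 7.15% of 32851 windows, and the longer TCACGTGA was in none of the 8, against 0.974%. Paired heat shock units, searched as GAANNTTC and TTCNNGAA, were in 1 of 8 and 0 of 8, against 7.86% and 8.52%. These motifs read the same on both strands, and CACGTG lies within TCACGTGA. A match describes the letters only. The 3 matches, 2 of the E-box core and 1 of a paired heat shock unit, are shown with the motif in capitals. They begin 14 and 132 bases before the start site for Atg5 and Atg7, and at base 18 after it for Optn.
Atg5, chr10:44268313-44268342, plus strand: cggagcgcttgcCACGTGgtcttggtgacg
Atg7, chr6:114670952-114670981, plus strand: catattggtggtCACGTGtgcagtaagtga
Optn, chr2:5064082-5064111, minus strand: gcgtggtctggGAAATTTCttggctagggc

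In more detail, the brightest probes of the 8 monocyte and macrophage markers summed to 743403 (heat) and 743639 (control). Of 8 neutrophil markers 6 were detected on both arrays, of 6 T cell markers on the array 4, and of 6 B cell markers 2. Of 7 erythroid markers only Hba-a1 was detected, and of 6 platelet markers only Pf4, while Alas2, Hbb-b1, Itga2b, Cd79a, Cd8a and Ly6g were among those detected on neither array. The median difference was 0.070 for the monocyte and macrophage markers, 0.015 for the neutrophil, 0.16 for the T cell and 0.18 for the B cell markers. The only measured marker differed by 0.26 for platelets and by 0.028 for erythroid cells. NK cell markers had summed signals of 140 and 244 and a median of -0.84 over the 2 measured on both arrays. Both values rest on 1 gene, Prf1, so they give no direction for the NK cell markers as a group. Ncr1, Gzmb and Klrd1 were detected on neither array. Prf1, the gene of perforin, had 46.0 and 152, a difference of -1.68 that only 0.129% of all genes reached, while Klrb1c differed by -0.0051. The count of detected NK cell markers, 3 of 6 for heat and 2 of 6 for control, differed by Nkg7, which had 31.6 and 32.6. In such a bulk sample, fewer cells of a type and less RNA per cell cannot be told apart, and the part of cell makeup in the differences above was not tested.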

How the data were processed

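RNA of 2 mouse blood samples was measured on 1-colour Agilent arrays. Per the labels' protocols, red and white cells were lysed differentially, globin transcripts were removed and 0.5 µg of RNA was labelled with Cy3. Per the file headers, the deposited intensity values were made by Feature Extraction 10.7.1.1, Agilent's scanner software (protocol GE1_107_Sep09), which corrects the processed signal for background. The submitters' processing notes name version 9.1. The flags for signal well above background, saturation and outlier spots are other values deposited with them. The authors' deposited log2 values had a median of 5.26 in each column and differed from quantile-normalized log2 processed signals by a median of 0.000532 (heat) and 0.00056 (control), so their scale and direction were settled.

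Outlier spots (168 and 149 of 59305, heat and control) were dropped and 0 spots were saturated. A probe's value is the mean log2 signal of its spots. Each array's 75th percentile (604 and 620.5, heat and control) was subtracted on the log2 scale. A probe was used where over 0.5 of its spots were flagged well above background on both arrays, and a gene is the mean over such probes, by the files' gene names. Older symbols were used for 2 genes of the wider list. With 1 array per group no test was made, and 2-fold was the threshold.

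The members and lists were chosen with earlier results of these data known. Named genes are all members, their paralogues and related receptors, the 4 highest and 4 lowest of the wider list and the largest of each role. The averaging over probes and the 2-fold count were tested on simulated data, with planted differences larger than 2-fold. Scaling, background flags, outlier removal and differences as small as those of the members were not tested in this way. R 4.3.3, limma 3.58.1, Python 3.11.15, numpy 2.4.6 and pandas 2.3.3 were used.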

Additional observations from a re-analysis of the deposited data

How the results depend on the processing

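Under 11 alternatives, 0 of the 10 members were 2-fold apart and all 10 stayed measured, and 0 genes of the wider list were 2-fold apart. The members' median ran from -0.017 (no scaling) to 0.047 (the brightest probe per gene), and that of the wider list from 0.0069 to 0.049. The count of all genes 2-fold apart, 123, was 36 and 38 with normexp background correction (75th percentile, quantile), 1735 with dim probes kept and 17 among the brighter 50% of probes, where fewer genes were tested; the cause of the others was not tested. Of 110 member values under alternatives, 7 moved by more than the spot SD of 0.084. Ulk1 reached 0.25, Atg16l1 0.17 and Atg9b -0.48 with dim probes kept. Atg13, Calcoco1 and Rptor took the other sign with the brightest probe, at -0.11, -0.17 and 0.054. No paired analysis was possible because each group held 1 array, which also left no replicate to leave out. Dim probes limit the reading: 3 of 24 member probes were not well above background on both arrays.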
